A study of Mus musculus with 9 samples.

Results

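The genes described here are the desaturases and elongases of polyunsaturated fatty acid synthesis, Fads1, Fads2, Elovl1, Elovl2, Elovl3 and Elovl5, in mouse liver. All non-control array probes whose gene name was 1 of these 6 were taken, which gave 16 of the 56605 probes and 6 of the 37074 gene names on the arrays. Livers came from 3 groups of male mice with 3 arrays each, labelled as 12 months old. AAV-V mice received an empty vector and AAV-GP73 mice a vector that expresses GP73 (the Golgi membrane protein encoded by Golm1), both on a regular diet. AAV-V HFD mice received the empty vector and a high-fat diet. Every group therefore carried an adeno-associated virus, built to act in hepatocytes and given by vein to C57BL/6N mice, and there was no group with both GP73 and the high-fat diet. The study used these groups to set the liver expression that GP73 brings about on a regular diet against that of a high-fat diet. The sources do not say if each array held RNA of a single mouse, so that p values measure the spread between samples, which may be technical in part. The sources also differ on how long the mice were followed: the labels give 12 months as the age, while the study's text counts the same time from injection, and its results and methods give different lengths for the high-fat diet.

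Polyunsaturated fatty acids are made in the liver from the essential fatty acids of the diet by alternating steps of desaturation and elongation. Fads2 encodes the desaturase that opens the pathway and Fads1 the desaturase that follows the first elongation, so that both are needed for arachidonate and eicosapentaenoate. Elovl5 lengthens the early products and Elovl2 the later ones on the way to docosahexaenoate, whose last step is a round of peroxisomal shortening. Elovl1 and Elovl3 belong to the same elongase family but act mainly on saturated and monounsaturated very long chains. In mouse liver Elovl3 is known for a day and night rhythm and for higher expression in males, and several genes of the pathway are known targets of the sterol regulatory factor SREBP-1c (Srebf1) and of the fatty acid receptor PPARalpha (Ppara).

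On these one-colour arrays Feature Extraction, the scanner's software, marks each spot as well above background or not. Between 10.2% and 10.7% of the non-control spots were so marked on the AAV-V arrays, 16.0% to 18.4% with GP73 and 13.8% to 16.7% with the high-fat diet. Both regular-diet groups shared slide 1, and all 3 AAV-V HFD arrays were on slide 2, which means that the effects of diet and of slide cannot be told apart. On slide 1 the AAV-V arrays all lay in row 1 and the AAV-GP73 arrays all in row 2. The effects of GP73 and of row therefore cannot be told apart either. The 1 probe for Golm1 was never well above background, with processed signals of 1.51 to 1.81 on the AAV-GP73 arrays and 1.62 to 2.06 on the AAV-V arrays. The labels could therefore not be checked by the gene that the vector expresses, since it is also unknown if the vector holds the stretch that this probe reads. All 10 hepatocyte markers were well above background on all 9 arrays. In AAV-GP73 against AAV-V, 2 of these 10 were called higher, against 33.2% of all genes tested. Among the 2427 genes that were likewise well above background on all 9 arrays, 391 were called higher in that comparison. Of the markers of other cells, 3 of the 4 tested erythroid markers (hemoglobins and others) were called higher there. So were 1 of 4 macrophage, 1 of 1 endothelial and 1 of 3 stellate cell markers tested, and 1 stellate cell marker was called lower. In AAV-V HFD against AAV-V, 1 hepatocyte marker was called higher and 2 stellate cell markers lower. The summed scaled signal of the 6 erythroid markers was 3316 to 16640 on the AAV-GP73 arrays, 379 to 922 on the AAV-V arrays and 616 to 1086 on the AAV-V HFD arrays, and its part in the results below was not tested. Not well above background on any array were 7 of 8 lymphocyte markers (Ptprc and Cd3e among them) and 4 of 6 adipocyte markers (Adipoq among them). The same held for 3 of 6 cholangiocyte markers (Epcam and Krt19 among them), 1 of 8 macrophage, 2 of 8 stellate cell and 2 of 7 endothelial markers. The other markers of these lists were well above background on at least 1 array. In a bulk liver sample, fewer cells of a type and less RNA per cell cannot be told apart.

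The brightest probe over all arrays stood for each gene. Signals are given on a log2 scale after the arrays had been shifted to one 75th percentile over the probes that every array detected (called the scaled log2 signal below), and also as the processed signal before that shift, in scanner units. Genes entered the test when their probe was detected on every array of some group, which left 5761 genes. Elovl2, Elovl3 and Elovl5 were tested, and all 3 passed only through the AAV-GP73 arrays, where they were brightest. Their calls were thus partly fixed by the filter, and no count over them is support for a direction. Fads1, Fads2 and Elovl1 were not tested. Changes are log2 differences unless given as folds. Calls needed a 2-fold difference or more together with an adjusted p under 0.05, by limma over all genes tested.

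The first 30 of the 60 bases of the probes that the results turn on are shown here as designed for the array, in lower case with nothing marked, because every level below is the signal of 1 such probe. In mm9 coordinates the Elovl2 probe lies at chr13:41277884-41277943 on the minus strand, the Elovl3 probe at chr19:46209325-46209384 and the Elovl5 probe at chr9:77832205-77832264 on the plus strand, and the Fads2 probe at chr19:10138750-10139180 on the minus strand. The 60 bases of the Fads2 probe spread over 431 bases of the genome, so that this probe is split by a gap, while the other 3 are contiguous. No mm9 annotation was used, so that exon and UTR are not given.
Elovl2 probe: gggaggcagaagccatttttcttttagatg
Elovl3 probe: cctccgtggcactaagggtatgggagaatg
Elovl5 probe: ctcaatacaaaaattataacatttgatagt
Fads2 probe: gtgagttcactgaagaagtctggggagctg
The Elovl2 and Elovl5 probes hold 35% G and C and the Elovl3 probe 55%, and levels were not compared between probes.

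RefSeq promoters on GRCm38.p6 were at hand for Fads2, Elovl1, Elovl2 and Elovl5, 4 of the 6 genes. The 250 bases before the start site are shown for Elovl2 (chr13:41220404-41220653, minus strand, the outer of its 2 start sites) and for Elovl5 (chr9:77917115-77917364, plus strand), the 2 elongases of the polyunsaturated chain that could be tested. Capitals mark CCAAT boxes on either strand (ATTGG when read on the other strand).
Elovl2 promoter: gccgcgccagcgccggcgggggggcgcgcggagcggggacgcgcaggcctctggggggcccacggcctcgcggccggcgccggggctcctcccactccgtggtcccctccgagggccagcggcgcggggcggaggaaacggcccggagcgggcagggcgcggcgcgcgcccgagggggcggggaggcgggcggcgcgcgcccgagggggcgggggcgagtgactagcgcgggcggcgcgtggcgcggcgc
Elovl5 promoter: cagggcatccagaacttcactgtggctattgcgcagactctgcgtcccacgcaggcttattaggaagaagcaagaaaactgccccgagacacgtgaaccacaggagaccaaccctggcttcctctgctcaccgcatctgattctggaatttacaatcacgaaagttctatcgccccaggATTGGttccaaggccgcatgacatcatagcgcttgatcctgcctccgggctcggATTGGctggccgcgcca
The Elovl5 promoter held 2 CCAAT boxes, which began 71 and 17 bases before the start on the minus strand, and that of Elovl1 held 1 at its first start site, 35 bases before the start. The box was found in 33.8% of the 32851 promoters of the table. The sterol regulatory element TCACNCCAC (1.05% of promoters) and a direct repeat of AGGTCA with a spacer of 1 base (0.0335%), searched on both strands, were in none of the 6 promoter entries of these genes. That says only that these letters are not in the windows. The Elovl2 window is 87.2% G and C and the Elovl5 window 55.6%.

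The desaturases could not be followed on these arrays. None of the 3 Fads1 probes was ever detected. The processed signal of the brightest was 4.21, 1.90 and 2.73 on the AAV-V arrays, 3.94, 2.98 and 2.69 on the AAV-GP73 arrays and 2.75, 2.10 and 1.58 on the AAV-V HFD arrays. In these units all groups overlapped, and every value lay below the lowest signal that counted as detected on its array, which was 5.95 to 8.39 over the 9 arrays. After scaling the AAV-V arrays (3.09, 2.03 and 2.32 on the log2 scale) stood above the AAV-GP73 arrays (1.56, 1.14 and 0.66) and the AAV-V HFD arrays (0.70, 0.48 and 0.63). Detected probes were dimmer on the AAV-V arrays, so that scaling lifts undetected probes there by construction, and no fold is given.

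Of the 5 Fads2 probes only the brightest was detected at all, on AAV-GP73 replicate 3 and AAV-V HFD replicate 3. Its processed signal was 1.60, 1.62 and 1.88 on the AAV-V arrays, 5.13, 7.24 and 7.94 on the AAV-GP73 arrays and 4.76, 5.67 and 9.41 on the AAV-V HFD arrays. Before scaling, the arrays of AAV-GP73 and of AAV-V HFD thus lay above those of AAV-V, with no overlap, and overlapped with each other. No AAV-V value was detected, and detected probes as a whole were dimmer on the AAV-V arrays. The share of all probes with such a separation before scaling was not counted, so that it is not read as a result for Fads2. After scaling the same probe was at 1.76 ± 0.06 (SD, n = 3) in AAV-V, 2.19 ± 0.24 (SD, n = 3) in AAV-GP73 and 2.21 ± 0.89 (SD, n = 3) in AAV-V HFD, all below the lowest detected signal of the AAV-V arrays. On this scale the AAV-V HFD arrays (1.49, 1.92 and 3.21) overlapped with the AAV-V arrays (1.69, 1.80 and 1.78), the AAV-GP73 arrays (1.95, 2.41 and 2.22) did not, and no fold is given. The other 4 Fads2 probes were not well above background on any array.

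Elovl1, an elongase of saturated very long chains, was detected by 1 of its 3 probes, on 2 AAV-GP73 arrays and 2 AAV-V HFD arrays and on no AAV-V array. Its processed signal was 2.22, 2.09 and 1.79 on the AAV-V arrays, 9.10, 3.27 and 9.33 on the AAV-GP73 arrays and 13.4, 10.4 and 6.26 on the AAV-V HFD arrays. On the scaled log2 scale the AAV-GP73 arrays (2.77, 1.27 and 2.46) overlapped with the AAV-V arrays (2.16, 2.17 and 1.72), and the AAV-V HFD arrays (2.98, 2.79 and 2.62) did not. Elovl1 was not detected on all arrays of any group and was not tested.

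**Figure D1:**
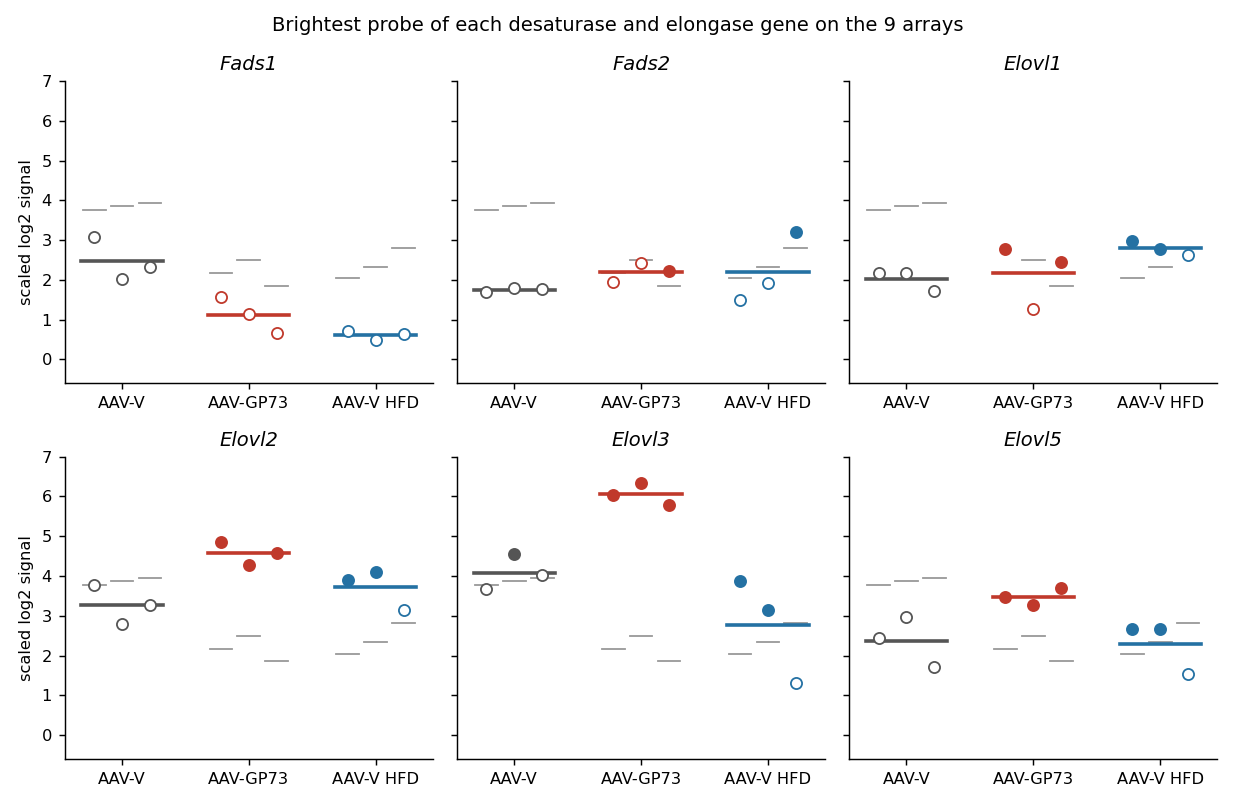
Scaled log2 signal of the brightest probe of each gene on the 9 arrays (y axis), by group (x axis). Filled points are well above background and open points are not, coloured lines are group means, and grey ticks are the lowest detected signal of each array. The grey ticks of the AAV-V arrays lie higher, between 3.77 and 3.94, than those of the other 6 arrays, between 1.85 and 2.81, and only for Elovl2 and Elovl3 do all 3 AAV-GP73 points lie above the AAV-V ticks.

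Elovl2, the elongase of the late steps, was higher in AAV-GP73 than in AAV-V. Its scaled log2 signal was 3.76, 2.79 and 3.28 on the AAV-V arrays, 4.86, 4.28 and 4.57 on the AAV-GP73 arrays and 3.91, 4.11 and 3.14 on the AAV-V HFD arrays. The AAV-GP73 arrays lay above all arrays of both other groups, and the AAV-V HFD arrays overlapped with AAV-V. The fitted log2 fold change between AAV-GP73 and AAV-V was 1.29 (SE 0.35, adjusted p = 0.0071). No AAV-V array detected Elovl2, so that this size is not measured. Set against the lowest detected signals of those arrays, the difference was at least 1.64-fold. AAV-V HFD differed from AAV-V by 0.44 (95% interval -0.31 to 1.20, adjusted p = 0.29) and from AAV-GP73, which was 0.85 higher (95% interval 0.09 to 1.61), with an adjusted p of 0.25. The order of the group means was AAV-GP73, AAV-V HFD, AAV-V, and only the first and the last differed past the thresholds.

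Elovl5, which lengthens the early products of Fads2, stayed closer to background. The scaled log2 signal of its brightest probe was 2.43, 2.97 and 1.72 on the AAV-V arrays, 3.47, 3.26 and 3.69 on the AAV-GP73 arrays and 2.67, 2.66 and 1.54 on the AAV-V HFD arrays. Again the AAV-GP73 arrays lay above both other groups, which overlapped with each other. With limma the fitted log2 fold change between AAV-GP73 and AAV-V was 1.10 (SE 0.39, adjusted p = 0.028), and it passed both thresholds. All 3 AAV-V arrays were without detection, and the AAV-GP73 mean of 3.47 lay below the lowest signal that those arrays could call detected, so that no least fold can be stated. The call was lost without AAV-V replicate 3 (log2 fold change 0.77, adjusted p = 0.12), AAV-GP73 replicate 1 (1.10, adjusted p = 0.063) or AAV-GP73 replicate 3 (0.99, adjusted p = 0.090), and with the test of the study's methods after Benjamini-Hochberg (adjusted p = 0.080). AAV-V HFD and AAV-V differed by -0.08 (95% interval -0.93 to 0.77, adjusted p = 0.87), and AAV-GP73 was 1.18 above AAV-V HFD (95% interval 0.33 to 2.03, adjusted p = 0.15), or 0.76 with the undetected AAV-V HFD value at the lowest detected signal of its array. The other 2 Elovl5 probes were not detected on any array, 1 of them placed over 260 bases of the genome.

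Elovl3 showed the widest difference of the 3 genes tested, between AAV-GP73 and AAV-V HFD. Its scaled log2 signal was 3.67, 4.54 and 4.02 on the AAV-V arrays, 6.04, 6.33 and 5.78 on the AAV-GP73 arrays and 3.87, 3.15 and 1.30 on the AAV-V HFD arrays. The AAV-GP73 arrays stood apart from both other groups, and the AAV-V HFD arrays reached into the range of AAV-V with replicate 1 and lay below it with the other 2. Elovl3 was well above background on all AAV-GP73 arrays, on AAV-V replicate 2 and on AAV-V HFD replicates 1 and 2. AAV-GP73 was 1.97 above AAV-V on the log2 scale (SE 0.53, 95% interval 0.81 to 3.14, adjusted p = 0.0074). Since only 1 AAV-V array detected it, the size is partly a bound, and with the undetected AAV-V values at the lowest detected signal of their arrays the difference was 1.94, or 3.84-fold. The high-fat diet group was 1.30 below AAV-V (log2 difference -1.30, 95% interval -2.47 to -0.14), which did not pass the threshold (adjusted p = 0.056). With the undetected AAV-V HFD value at that lowest signal the difference was -0.80. The undetected AAV-V values were left as measured there, so that -0.80 is no bound. Set against each other directly, AAV-GP73 was 3.28 above AAV-V HFD (SE 0.53, 95% interval 2.11 to 4.44, adjusted p = 0.011). With the undetected AAV-V HFD replicate 3 at the lowest detected signal of its array this was 2.77, or 6.83-fold. Elovl3 was the only 1 of the 3 genes tested that was called in that comparison, in which 1.96% of all genes tested were called higher. All 3 had passed the filter only through the AAV-GP73 arrays.

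The Elovl3 difference between AAV-GP73 and AAV-V HFD was not called without AAV-GP73 replicate 2 (3.14, adjusted p = 0.059) or AAV-GP73 replicate 3 (3.41, adjusted p = 0.051). AAV-V HFD replicate 3 was the lowest array of its group for Elovl2, Elovl3 and Elovl5 and detected none of them. Without it Elovl3 was 2.54 higher in AAV-GP73 than in AAV-V HFD (adjusted p = 0.0073) and 0.56 lower in AAV-V HFD than in AAV-V (log2 difference -0.56, adjusted p = 0.20). Without AAV-V HFD replicate 1, in contrast, Elovl3 was called lower in AAV-V HFD than in AAV-V (-1.85, adjusted p = 0.012). The share of spots well above background was 13.8% on AAV-V HFD replicate 3, the lowest of its group, while the summed signal of hepatocyte markers was highest there (13080, against 5977 and 11160).

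Before scaling the contrast between AAV-GP73 and AAV-V was wider. The processed signal of Elovl3 was 6.3, 10.9 and 8.87 on the AAV-V arrays, 87.8, 109 and 93.3 on the AAV-GP73 arrays and 24.8, 13.4 and 2.50 on the AAV-V HFD arrays. For Elovl2 it was 6.73, 3.21 and 5.31 on the AAV-V arrays, 38.6, 26.4 and 40.4 on the AAV-GP73 arrays and 25.3, 25.9 and 8.96 on the AAV-V HFD arrays. For Elovl5 it was 2.67, 3.66 and 1.80 on the AAV-V arrays, 14.8, 13.0 and 21.9 on the AAV-GP73 arrays and 10.8, 9.49 and 2.97 on the AAV-V HFD arrays. All 3 genes were brightest on the AAV-GP73 arrays in these units too, and Elovl2 was brighter on every AAV-V HFD array than on any AAV-V array. The share of all genes that separate in this way before scaling was not counted. The mean of Elovl3 was higher in AAV-V HFD (13.5) than in AAV-V (8.68), opposite to the scaled order, and the arrays of these groups overlapped.

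**Figure D2:**
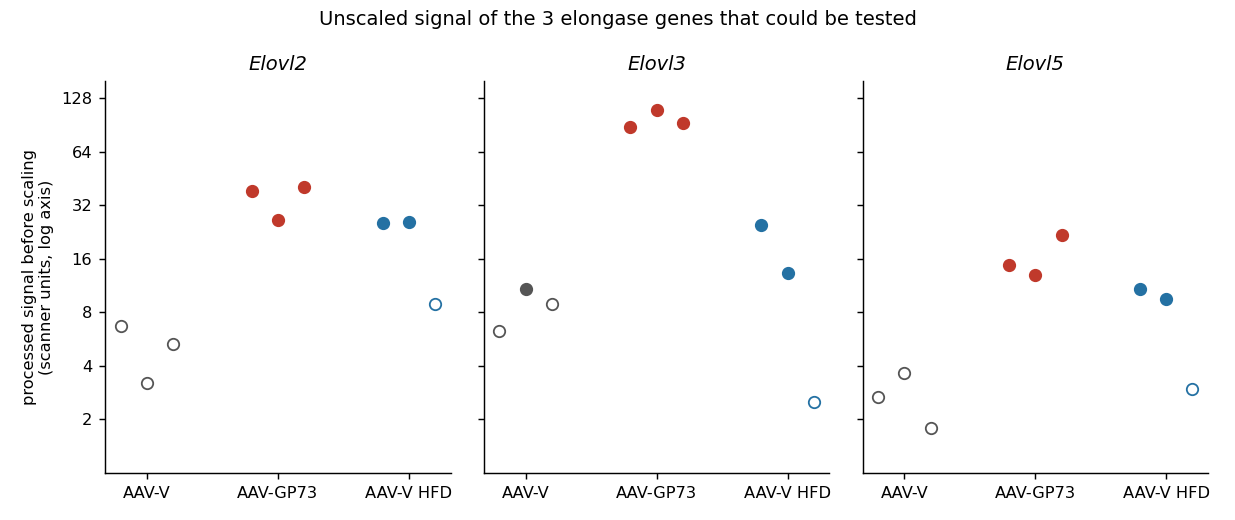
Processed signal in scanner units before scaling (y axis, log axis) of Elovl2, Elovl3 and Elovl5 on each array, by group (x axis). Filled points are well above background and open points are not. The 3 AAV-GP73 arrays are the brightest in each panel, and AAV-V HFD replicate 3, the rightmost point, is below the other 2 arrays of its group.

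The AAV-V arrays were dimmer over the detected probes but not over the spike-in control spots. The mean log2 signal of those spots was 8.06 to 8.53 on the AAV-V arrays, 8.05 to 8.13 on the AAV-GP73 arrays and 8.16 to 8.46 on the AAV-V HFD arrays. The median processed signal of the probes detected on all 9 arrays was 33.1 to 38.7 on the AAV-V arrays, 104 to 129 on the AAV-GP73 arrays and 76.4 to 124 on the AAV-V HFD arrays, and the scaling therefore moved AAV-V up against the rest. Scaled instead by the 75th percentile of all non-control probes, the middle log2 fold change over the genes tested rose from 0.60 to 1.59 for AAV-GP73 against AAV-V and from 0.37 to 1.32 for AAV-V HFD against AAV-V. Under that scaling Elovl3 was 2.97 higher in AAV-GP73 than in AAV-V (adjusted p = 0.00053), and Elovl2 was called higher in AAV-V HFD (1.40, adjusted p = 0.0091). Measured from the all-gene median, Elovl3 was 1.38, Elovl2 0.70 and Elovl5 0.50 higher in AAV-GP73 against AAV-V, and Elovl3 lay 1.67 below the median in AAV-V HFD against AAV-V (difference from the median -1.67). That median itself depends on the filter. Only 2427 genes were detected on all 9 arrays, with a median change from AAV-V of -0.19 with GP73 and -0.36 with the diet. No member was among them. With normexp background correction and an offset of 50, no member was called in AAV-GP73 against AAV-V and Elovl2 and Elovl5 turned to -0.48 and -0.62. Elovl3 was at 0.07 there (adjusted p = 0.75 by limma). That offset is larger than every processed signal of Elovl2 and Elovl5, but smaller than those of Elovl3 on the AAV-GP73 arrays (87.8, 109 and 93.3). Its part in these changes was not tested.

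**Figure D3:**
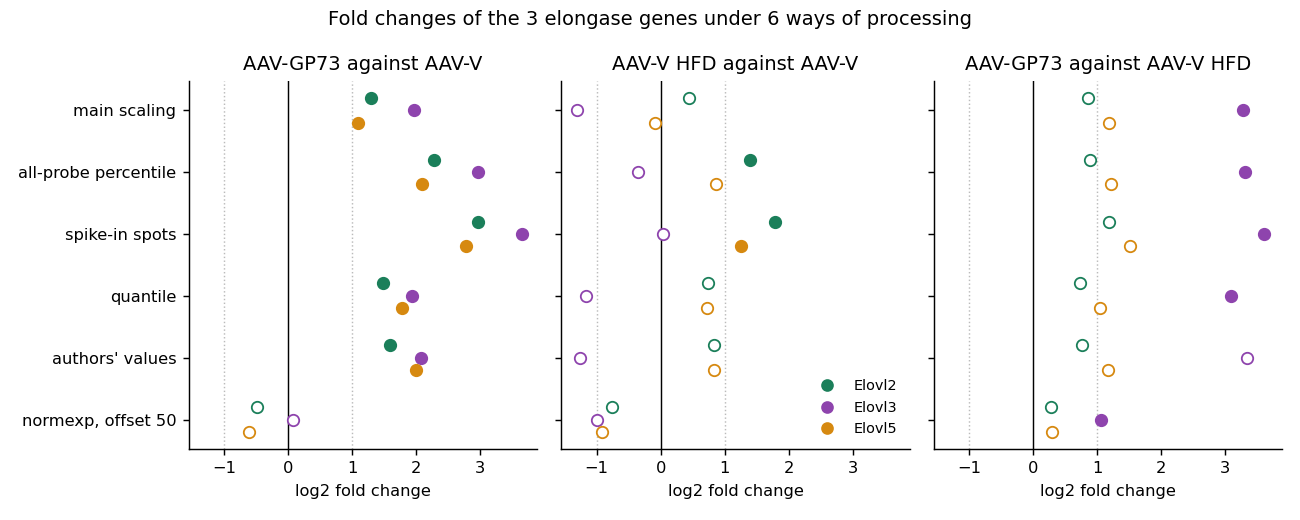
Log2 fold change of Elovl2, Elovl3 and Elovl5 (x axis) under 6 ways of processing (y axis), for each comparison. Filled points passed a fold change of 2 and an adjusted p under 0.05, and dotted lines mark a fold change of 2. Elovl3 is above 3 in AAV-GP73 against AAV-V HFD in 5 of the 6 and at 1.06 with normexp, while the values against AAV-V move with the scaling.

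Over all genes tested, 33.2% were called higher and 19.4% were called lower in AAV-GP73 against AAV-V, 24.8% and 18.2% in AAV-V HFD against AAV-V, and 1.96% and 0.555% in AAV-GP73 against AAV-V HFD. The filter shapes these shares as well. Of the 2427 genes detected on all 9 arrays, more fell than rose against AAV-V. With GP73 391 passed as higher and 790 as lower, and with the diet 281 and 736. Between AAV-GP73 and AAV-V HFD the counts were 42 and 23. Against AAV-V, all 3 of the members tested were called higher in AAV-GP73, which the filter partly fixed, and none was called in AAV-V HFD. The first 2 comparisons share the AAV-V arrays. Arrays of AAV-GP73 lay wholly above those of AAV-V for 44.6% of all genes tested, as they did for the 3 members tested. They lay wholly above those of AAV-V HFD for 15.2%, which again included all 3. AAV-V HFD arrays lay wholly above those of AAV-V for 33.8% of genes tested and for none of the 3 members tested. Members that were not tested are outside these counts. No member was well above background on all 9 arrays (at most 6, for Elovl3), so that no genes with a like pattern were sought.

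For the genes around the pathway, a pair of values gives AAV-GP73 first and AAV-V HFD second, each against AAV-V. In medians with least changes, a gene whose bound had the opposite sign to its fitted change was put at 0, not at the bound. The medians of all genes tested, 0.60 and 0.37, depend on the filter. They were -0.19 and -0.36 over the genes detected on all 9 arrays. Among the other desaturases and elongases, the stearoyl-CoA desaturases Scd1 and Scd3 were the genes that fell. Of 11 on the array 4 were tested, with 0 called higher and 1 lower in AAV-GP73 against AAV-V (median log2 fold change -0.38, or -0.43 with undetected genes at their least change, against 0.60 for all genes tested) and 0 and 2 in AAV-V HFD against AAV-V (median -1.53, or -1.51, against 0.37). Scd1, the main liver enzyme that makes monounsaturated fatty acids, was at 6.27, 5.78 and 5.72 on the AAV-V arrays, 4.54, 5.15 and 5.48 on the AAV-GP73 arrays and 2.06, 2.75 and 3.51 on the AAV-V HFD arrays. The AAV-V HFD arrays lay below all others, with a log2 fold change of -3.15 against AAV-V (SE 0.39, adjusted p = 2.8e-04), while the change of -0.86 in AAV-GP73 did not pass (adjusted p = 0.070) and was 0.13 with the percentile of all probes. Scd3, a close relative of Scd1 whose probe may share signal with it, reached detection in AAV-GP73 replicate 3 but in none of the AAV-V HFD replicates. Both differences from AAV-V were called lower, by 3.11 in AAV-GP73 with undetected values at the lowest detected signal of their arrays (fitted change -3.42), and by at least 8.08-fold in AAV-V HFD. Elovl6, which lengthens palmitate, was detected on all 9 arrays and differed from AAV-V by 0.10 in AAV-GP73 and by 0.09 in AAV-V HFD (adjusted p = 0.84 and 0.85), but by 1.09 and 1.05 with the percentile of all probes, where both passed. That scaling called 2 of the 4 higher in each comparison.

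Partners of the elongation cycle and its electron donors moved both ways. Of 14 on the array 6 were tested, with 3 called higher and 2 lower in AAV-GP73 against AAV-V (median 0.66, or 0.54 with least changes) and 2 and 2 in AAV-V HFD against AAV-V (median 0.37), and 4 and 1 in each with the percentile of all probes. Cyb5a, which encodes cytochrome b5, the electron donor of the desaturases, rose by 2.41 in AAV-GP73 (SE 0.30, adjusted p = 1.2e-04) and by 2.56 in AAV-V HFD (adjusted p = 2.3e-04). Hacd3, a dehydratase of the cycle that 1 AAV-V array detected, rose by 1.56 and 1.62 (1.31 and 1.38 with undetected values at the lowest detected signal). Acacb, the acetyl-CoA carboxylase of the mitochondrial surface, fell by 2.34 and 2.28. Hsd17b12, the reductase of the cycle, was called lower in both (-1.23 and -1.23, adjusted p = 0.015 and 0.017), but not with the percentile of all probes (-0.23 and -0.27). Tecr, the last reductase of the cycle, was never well above background.

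Among the 18 genes of transcriptional control 10 were tested, with 5 called higher and 3 lower in AAV-GP73 against AAV-V (median 0.90, or 0 with least changes) and 3 and 1 in AAV-V HFD against AAV-V (median 0.37, or 0.17). With the percentile of all probes the counts were 7 and 1, and 7 and 0. Srebf1 was well above background on the 3 AAV-V HFD arrays alone (3.29, 3.08 and 3.09 on the scaled log2 scale) and on no array of AAV-V or AAV-GP73, so that no fold is given between those, although it is 1 of the 3 counted lower. Ppara, the fatty acid receptor, was detected on all AAV-GP73 and AAV-V HFD arrays and on no AAV-V array, and exceeded AAV-V by at least 2.16-fold in AAV-GP73 (adjusted p = 0.0085) and by at least 1.80-fold in AAV-V HFD (adjusted p = 0.021). Its partner Rxra rose by 1.62 and 1.42. Nr1h3, which encodes the oxysterol receptor LXRalpha, was at least 2.01-fold and at least 2.12-fold higher. Their sister receptors, detected on all 9 arrays, went the other way. Nr1h2 (LXRbeta) fell by 1.38 and 1.31, and Rxrb fell by 1.29 in AAV-GP73 while its change of -0.94 in AAV-V HFD was under the fold threshold. With the percentile of all probes none of these 3 calls held (-0.38, -0.35 and -0.30). Insig2, which holds SREBP in the endoplasmic reticulum, was at least 1.21-fold higher in AAV-GP73 than in AAV-V (adjusted p = 1.5e-04), and Insig1 was not detected on any array. Scap, the escort of SREBP, and Mlxipl, the carbohydrate response factor, had fitted changes of 0.73 and 0.29 in AAV-GP73 and -0.21 and 0.25 in AAV-V HFD, none of which passed. No AAV-V array detected either gene, so that these sizes are not measured. With the percentile of all probes both passed in AAV-GP73 (1.73 and 1.28, adjusted p = 0.0050 and 0.0094 by limma). Mlxipl then also passed in AAV-V HFD (1.20, adjusted p = 0.016).

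Most tested enzymes of the peroxisomal last step of docosahexaenoate synthesis were called higher in both groups. Of 11 on the array 9 were tested, and 8 rose and 1 fell in AAV-GP73 against AAV-V (median 3.11, or 2.49 with undetected genes at their least change) and also in AAV-V HFD against AAV-V (median 1.39). Hsd17b4, the bifunctional enzyme that acts on very long chains, was not detected on AAV-V arrays and was at least 7.59-fold higher in AAV-GP73 and at least 4.00-fold higher in AAV-V HFD. Scp2, whose product includes the thiolase for these chains, rose by 3.11 and 2.54, and Acaa1b, a thiolase, by 3.49 and 2.22. The close relative Acaa1a was the 1 that fell, by 1.53 and 2.36, but it was not called in AAV-GP73 with the percentile of all probes (-0.54). The probes of such pairs may share signal.

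Genes that activate polyunsaturated fatty acids or place them in phospholipids were mostly too dim, with 5 of 18 tested, 2 called higher and 1 lower in both groups against AAV-V (medians 0.72, or 0 with least changes, and 0.53). With the percentile of all probes these were 4 and 0 with GP73 and 3 and 1 with the diet. Acsl1, also detected on 1 AAV-V array, rose by 3.60 in AAV-GP73 and by 1.95 in AAV-V HFD (3.31 and 1.66 on the same terms), and Acsl5 fell by 1.54 and 2.14, of which the first was not called with the percentile of all probes (-0.55). The fitted rise of Acsl4, which prefers arachidonate, was 1.03 and 1.17, with detection on no AAV-V array and a level below what those arrays could detect. Of the 16 genes of oxygenation 7 were tested, with 2 called higher and 2 lower in both groups against AAV-V (medians 0.59 and 0.10, and 0.0001 and 0 with least changes). With the percentile of all probes these were 5 and 0 with GP73 and 4 and 0 with the diet. Ephx2, the soluble epoxide hydrolase that acts on fatty acid epoxides, rose by 4.24 in AAV-GP73 (SE 0.31, adjusted p = 8.1e-06) and by 2.77 in AAV-V HFD, and Ptges3 rose by 1.52 and 1.53. Ltc4s and Cyp2c29 fell by 1.81 and 1.35 in AAV-GP73 and by 1.46 and 1.30 in AAV-V HFD, and with the percentile of all probes neither was called in either.

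Because Elovl3 is known for a daily rhythm and a male bias, genes with these features were set beside it. Of 15 clock genes 4 were tested, and by either scaling 1 was called higher and 1 lower with GP73 (median -0.42) and 2 and 0 with the diet (median 0.65). Dbp, an output gene of the clock, was at 4.91, 3.38 and 4.34 on the AAV-V arrays, 2.15, 1.60 and 1.39 on the AAV-GP73 arrays and 6.47, 6.49 and 5.09 on the AAV-V HFD arrays, with no overlap between any of the groups. It was detected on 2 AAV-V arrays and on no AAV-GP73 array, and was called lower in AAV-GP73 (adjusted p = 7.7e-04). With the AAV-GP73 values at the lowest detected signal of their arrays it was 4.12-fold lower there. The undetected AAV-V value was left as measured, so that this is no least fold. Dbp rose by 1.81 in AAV-V HFD (adjusted p = 0.0070). Nfil3, which opposes Dbp at the same DNA sites, was detected on the AAV-GP73 arrays alone, and was at least 1.16-fold higher there than in AAV-V. Tef rose by 1.31 in AAV-V HFD and differed by -0.09 in AAV-GP73 (adjusted p = 0.83). The time of day at which livers were taken is not given in the sources used here, and its part in the Elovl3 values was not tested.

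Of the 12 male-biased genes 10 were tested, with 5 called higher and 0 lower in AAV-GP73 against AAV-V (median 1.11, or 0.77 with least changes, against 0.60 for all genes tested), and with 1 called higher and 2 called lower by diet (median 0.08, against 0.37). With the percentile of all probes 7 were called higher in AAV-GP73 while 3 were in AAV-V HFD, and 0 were lower in either. Mup20, a major urinary protein, rose by 1.52 in AAV-GP73 (adjusted p = 0.015) and differed by 0.18 in AAV-V HFD (adjusted p = 0.76), and its probe may share signal with other members of that family. Selenbp2 rose by 1.74 and 1.11. Cyp2d9 was called lower in AAV-V HFD (-1.55, adjusted p = 0.0072) but not with the percentile of all probes (-0.60).

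**Figure D4:**
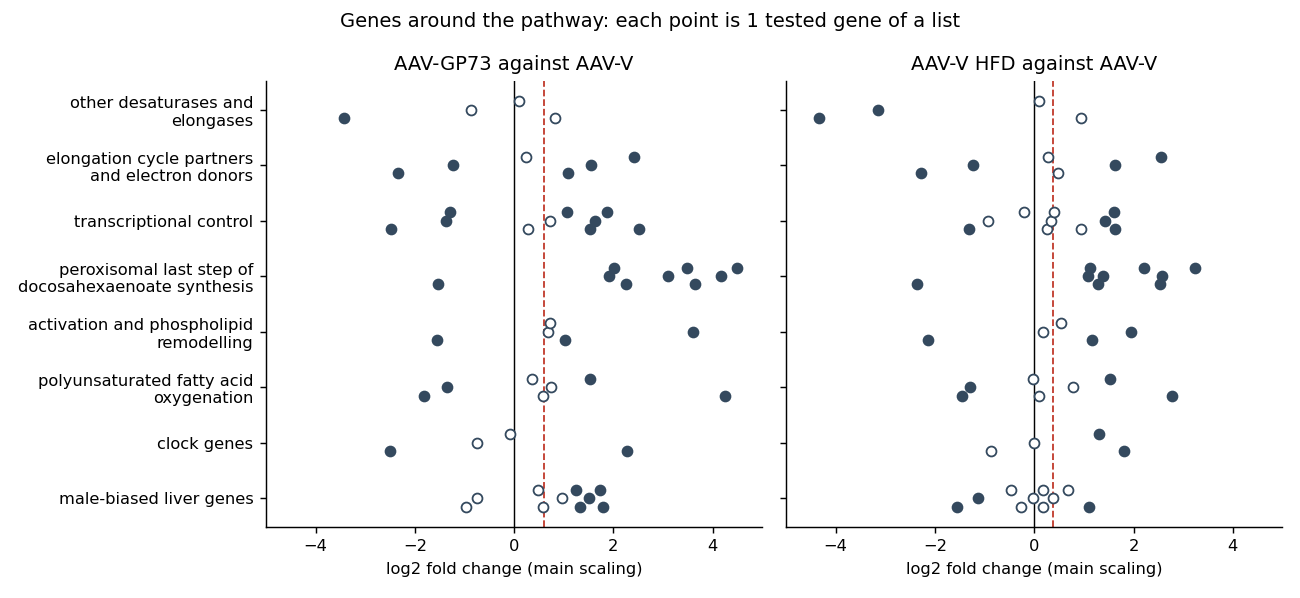
Log2 fold change of each tested gene (x axis, scaled by the detected probes) in 8 gene lists around the pathway (y axis), for AAV-GP73 and AAV-V HFD against AAV-V. Filled points were called, open points were not, and the dashed line is the median of all genes tested (0.60 and 0.37). The peroxisomal list has 8 of 9 points called to the right of 0 in both panels.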

How the data were processed

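Liver RNA was measured on 9 Agilent arrays in Cy3 alone. Feature Extraction (12.0.3.1 per the file headers, 10.7 in the submitters' processing notes) gave the deposited intensity of each spot, background-subtracted and detrended within its array. The log2 values deposited by the authors are those of the same arrays, their normalization is not given in the sources used here, and they served as an alternative. Groups came from the labels.

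Processed signals were taken to log2, spots with an outlier mark were left out, and arrays were shifted to a common 75th percentile over those 2667 probes that every array detected. This scaling was preferred to the percentile of all probes because under 1 in 5 spots were detected. Tests used limma 3.58.1 in R 4.3.3 (lmFit and eBayes, all 3 groups fitted together) with Benjamini-Hochberg adjustment. Intervals are 95% intervals of that fit. A least fold change sets each undetected value to the lowest detected signal of its array, or to its own if higher. The same was done, after seeing the data, where a group was detected on some arrays, and there only for the dimmer group of the comparison. In the list medians with least changes, a gene was put at no change where its bound and its fitted change had opposite signs. With 3 arrays a side, an exact permutation test cannot go under 0.1. In simulated data for AAV-GP73 against AAV-V over 5759 genes, 63 of 100 log2 changes of 1.5 and 97 of 100 log2 changes of 3 were found, and 13 false calls were made.

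The members, the gene lists, the scaling and the tests were chosen with earlier results of these data known. The genes named beside the members were, per list, up to 4 called genes with the largest change, and a fixed set (Srebf1, Scap, Insig1, Insig2, Ppara, Rxra, Nr1h3, Mlxipl, Scd1, Elovl6, Hsd17b12, Tecr). Some genes are not reported here by name. Protein sequences were not analysed here.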

Additional observations from a re-analysis of the deposited data

Results flagged for a closer look

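Elovl3 stood out because AAV-GP73 and AAV-V HFD, each set against the same AAV-V arrays, differed from each other in a direct limma test. The log2 difference between AAV-GP73 and AAV-V HFD was 3.28 (adjusted p = 0.011). The AAV-GP73 signal was above the AAV-V HFD signal for every pair of arrays, as it was for 15.2% of all genes tested. Elovl3 was picked by this difference and passed the filter only through the AAV-GP73 arrays, so that these values are no further support. The call was lost with the authors' log2 values (limma, adjusted p = 0.074) and with the methods' t-test after Benjamini-Hochberg (adjusted p = 0.24). The AAV-V HFD arrays lay on a slide of their own, so that slide and group cannot be told apart here.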

How the results depend on the processing

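Elovl3 kept its direction under all 19 alternatives in AAV-GP73 against AAV-V (0.07 to 3.66) and in AAV-GP73 against AAV-V HFD (1.06 to 3.82), and lost its call in 1 and 4 of them. Against AAV-V, members called higher in AAV-GP73 were 3, but 0 with normexp and 0 with detection on all 9 arrays (which leaves no member to test), 2 with the methods' t-test after Benjamini-Hochberg (without Elovl5), and 2 to 3 without each array in turn. The least change of Elovl2 was 0.71 on the log2 scale and 1.70 with the percentile of all probes, and for Elovl5 it was -0.38 and 0.61. With no filter 1 member was called lower there and 2 in AAV-V HFD against AAV-V. Elovl3, detected on some arrays of both groups, was among these 2 (-1.30, adjusted p = 0.036 by limma). Probes that no array detected move with the scaling by construction. In AAV-V HFD against AAV-V, members called higher were 1 with the percentile of all probes and 2 with either set of spike-in spots. The planned set held all 313 spike-in spots, and the 228 detected on all arrays were chosen after seeing the data. Members called lower there were 1 with a variance trend and 1 with the replicate block, and 0 to 1 without each array. In AAV-GP73 against AAV-V HFD, members called higher were 0 with the authors' log2 values, 0 with detection on all 9 arrays, 2 with the methods' t-test unadjusted and 0 after Benjamini-Hochberg, and 0 to 1 without each array. Signs turned with normexp for Elovl2 (-0.48 by GP73 and -0.76 by diet, both against AAV-V) and Elovl5 (-0.62 in AAV-GP73), and with the spike-in spots for Elovl3 in AAV-V HFD (0.0365 with all and 0.0324 with detected spots). Elovl5 in AAV-V HFD, near 0, turned to 0.87 with the percentile of all probes, 0.73 with quantile normalization, 1.26 and 1.25 with the spike-in sets, 0.84 with the authors' values, 0.22 without AAV-V replicate 2 and 0.29 without AAV-V HFD replicate 3, and ran from -0.41 to 0.29 without each array. Causes were not tested. Equal replicate numbers correlated between -0.12 and 0.17, with 2 of 9 over 0.1, and were not pairs. The replicate block gave 3 members higher in AAV-GP73, and Elovl3 in AAV-V HFD at -1.30 with an adjusted p of 0.041. Over all genes, the number called higher in AAV-GP73 against AAV-V ran from 138 with normexp to 4385 with the detected spike-in spots, against 1912, and the number called lower from 84 to 27635, against 1117. In AAV-V HFD against AAV-V these ran from 72 to 3787, against 1427, and from 72 to 26446, against 1049. In AAV-GP73 against AAV-V HFD they ran from 10 to 288, against 113, and from 2 to 89, against 32. Signal over background was a limit as well, since 13 of the 16 probes were not detected on all arrays of any group.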
